A study of Mus musculus with 10 samples.

Results

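The 34 genes described here encode subunits of the SWI/SNF chromatin remodelling complex of mammals, related ATPases of the SNF2 family, and other proteins with an AT-rich interaction domain (ARID). They were chosen by name, each through the probe sets that name it alone, and all 34 of them could be measured among 19938 genes in all. For the 2 members with 3 probe sets each, the brightest one on average was taken. Expression had been measured on 1 Affymetrix mouse whole-transcript array per embryo in 5 transgenic forebrains, dtg in the labels, and 5 control forebrains, stg in the labels, all at E12.5 on a mixed CD1/NMRI background. The transgenic embryos express a constitutively active allele of FoxO3, a transcription factor restrained by insulin signalling, from the CaMKIIa promoter, which is used to restrict a transgene to forebrain. The labels spell out neither abbreviation and do not say which transgenes the control embryos carry. The litters of 2 dams were used without any record of which embryo belongs to which, so litter and genotype cannot be told apart.

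SWI/SNF complexes, in mammals called BAF, PBAF and ncBAF, use ATP to slide or evict nucleosomes and so open regulatory DNA. In the mouse brain the BAF complex changes composition when a progenitor leaves the cell cycle: Actl6a, Phf10 and Ss18 give way to their neuronal paralogues Actl6b, Dpf1, Dpf3 and Ss18l1. Dpf2, a paralogue of the same family as Phf10, is counted here with the progenitor subunits. In C. elegans the FOXO protein recruits SWI/SNF to its target genes, and the levels of these genes under active FoxO3 are therefore of interest.

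Foxo3 itself read 6.95, 7.13, 7.10, 6.76 and 6.96 on the log2 intensity scale in transgenic embryos 1 to 5, against 6.50, 6.61, 6.59, 6.65 and 6.87 in control embryos 1 to 5. In 4 of the 5 transgenic embryos it lay above every control, but the difference of 0.34 ± 0.085 (SE, n = 5 per group) did not pass over all genes (limma adjusted p = 0.218). Array medians ran from 5.36 to 5.39, and the number of arrays limits the precision. Control embryo 5 stood apart in cell content. The mean of 15 pan-neuronal markers was 8.46 to 9.09 in transgenic embryos and 8.48 to 8.81 in control embryos 1 to 4, but 7.45 in control embryo 5. Its 7 mesenchyme markers averaged 8.70, whereas they averaged 6.83 to 7.61 in transgenic embryos and 6.53 to 7.53 in the other controls. The differences of the neuronal subunits, their mean and the regulators of the subunit switch are given with and without this embryo. In these bulk samples fewer cells of a type and less RNA per cell cannot be told apart.

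Of the 34 genes 1 was called, a call that held in 16 of the 20 alternative fits given at the end. Arid5b rose in transgenic forebrains by a log2 difference of 0.56 ± 0.070 (SE, n = 5 per group), or 1.48-fold, with an adjusted p of 0.00969 in limma over all genes. No other member passed in either direction. Over all genes 0.105% were called, 0.0652% as higher and 0.0401% as lower in transgenic forebrains. Of the 34 members 22 had a positive and 12 a negative difference, against 9594 positive and 10344 negative over all genes. The median difference was 0.013 on the log2 scale, against -0.0038 over all 19938 genes. The typical size of a difference, whatever its sign, was 0.064 over the members and 0.059 over all genes. At an unadjusted p below 0.05 there were 3 members, or 8.82%, against a background of 7.58%, a share near that of all genes. The median within-group SD of the members was 0.096 on the log2 scale, against 0.12 over all genes, but 0.27 for the neuronal subunits. Members and all genes were not matched for intensity.

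**Figure D1:**
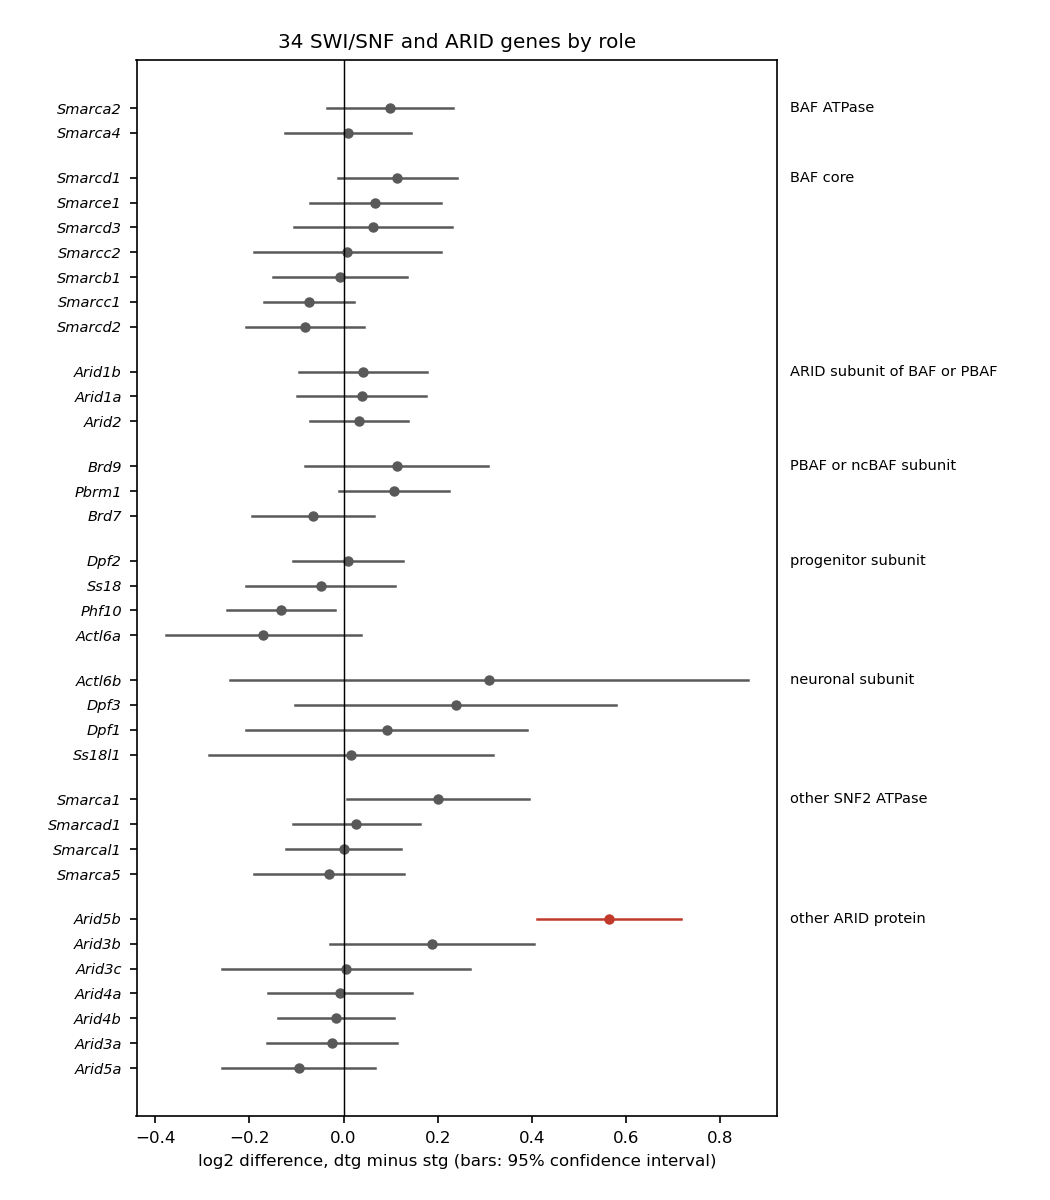
Log2 difference between 5 transgenic (dtg) and 5 control (stg) forebrains for each of the 34 genes, grouped by role, with the 95% confidence interval of the limma fit as a bar. Arid5b, in red, is the only member past an adjusted p of 0.05, at 0.56, and the neuronal subunits have the widest intervals.

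Arid5b encodes a DNA-binding ARID protein that is no SWI/SNF subunit. It is known as a partner of the histone demethylase Phf2 and as a regulator of fat cell differentiation in mice. Its log2 intensity was 7.26, 7.18, 7.20, 7.15 and 7.19 in transgenic embryos 1 to 5. In control embryos 1 to 5 it was 6.53, 6.46, 6.60, 6.79 and 6.78. The groups did not overlap, and 0.36 on the log2 scale separated the lowest transgenic from the highest control embryo. Over all genes 0.978% had transgenic embryos that all lay above the controls. The transgenic embryos lay close together, with an SD of 0.038, whereas the controls had an SD of 0.15. By p-value Arid5b ranked 8 among all genes.

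The size of the Arid5b difference varied little when an embryo was left out, from 0.52 to 0.60, and the gene passed in 9 of these 10 fits. Without transgenic embryo 1 the difference was 0.55 with an adjusted p of 0.0505. Markers of diencephalon, the part of the brain from which the thalamus was mostly cut away during dissection, had higher means in transgenic embryos. Of the 12 such markers 11 had a positive and 1 a negative difference. In limma 7 of them, or 58.3%, had an unadjusted p below 0.05, against 7.58% of all genes, and 0 were called. The marker lists were chosen with earlier results of these data known, and this one holds the largest difference of all genes, 2.26. Its counts are therefore a description and no test of an excess. The mean of the 12 was 6.72 to 7.34 in transgenic embryos and 5.64 to 6.95 in controls. This mean differed by 0.79, or by 0.635 without control embryo 5. Markers of telencephalon, the rostral part of the forebrain, had the opposite sign: all 6 measured of 7 had a negative difference. Their mean was 7.11 to 7.46 in transgenic embryos, against 7.96, 7.96, 7.19, 7.68 and 6.73 in control embryos 1 to 5, and differed by -0.26, or by -0.46 without control embryo 5. With the diencephalon mean in the model Arid5b differed by 0.51 ± 0.11. Neither it (limma adjusted p = 0.583) nor any of the 19938 genes passed, and 764 genes then had an unadjusted p below 0.05. Because the diencephalon mean itself differed between the groups, this fit cannot tell its part from that of genotype. With the 15 pan-neuronal markers in the model the Arid5b difference was 0.59 and the call was kept (adjusted p = 0.00545). With the 11 measured markers of dividing cells in the model it was 0.55 (adjusted p = 0.0505).

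The promoter of Arid5b is shown because this is the member that rose. RefSeq places the 250 bases before a transcript start of this gene at chr10:68278727-68278976 on the minus strand of GRCm38.p6, upstream of the transcript and outside its exons. The start lies within the annotated span of the gene, so other transcripts begin further upstream.

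Arid5b: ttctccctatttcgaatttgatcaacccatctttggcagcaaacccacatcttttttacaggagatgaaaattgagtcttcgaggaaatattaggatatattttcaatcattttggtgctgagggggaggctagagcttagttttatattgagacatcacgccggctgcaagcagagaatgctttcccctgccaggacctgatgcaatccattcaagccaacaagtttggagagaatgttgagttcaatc

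No letters are in capitals because the motif searched for, the FOXO site GTAAACA on either strand, is not in this window. The motif was in 3.17% of 32851 promoter windows of the same length in the RefSeq table. It was in 0 of the 33 windows that the table gives for 29 of the 34 members. A match would be a run of letters and not a bound site, and its absence concerns this window only.

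The other ARID proteins outside SWI/SNF did not pass. Arid3b, a DNA-binding relative with roles in embryonic development, read 5.62, 5.67, 5.74, 6.12 and 5.85 in transgenic embryos, against 5.70, 5.49, 5.65, 5.79 and 5.44 in controls. The groups overlapped, and the difference was 0.19 ± 0.099 (SE; limma adjusted p = 0.722). Arid5a, which stabilizes inflammatory transcripts in mice, read 5.19, 5.39, 5.22, 5.32 and 5.14 in transgenic embryos, against 5.32, 5.34, 5.57, 5.32 and 5.20 in controls, with overlapping groups. Its difference of -0.095 ± 0.074 on the log2 scale, of opposite sign to that of Arid5b, did not pass (adjusted p = 0.834). Arid3a differed by -0.024 and Arid3c by 0.0056. Arid4a and Arid4b, which bind the retinoblastoma protein and join SIN3 repressor complexes, differed by -0.0077 and -0.017. The 95% interval of the Arid4b difference ran from -0.14 to 0.11.

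Of the catalytic ATPases of SWI/SNF, Smarca4 had log2 intensities of 9.55, 9.43, 9.59, 9.39 and 9.48 in transgenic embryos. In controls it had 9.55, 9.53, 9.45, 9.53 and 9.33. The ranges overlapped almost wholly, with a difference of 0.0091 and a 95% interval from -0.13 to 0.14 (limma adjusted p = 0.984). Its paralogue Smarca2 read 7.58, 7.36, 7.32, 7.35 and 7.40 in transgenic embryos, against 7.34, 7.35, 7.31, 7.34 and 7.18 in controls. It lay above every control in 4 of 5 transgenic embryos, yet the difference of 0.098 ± 0.062 did not pass (adjusted p = 0.783).

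The subunits counted here as core, not all of which occur in every SWI/SNF assembly, had differences between -0.081 and 0.11 and none passed. Smarcc1, a scaffold protein abundant in neural progenitors, read 9.42, 9.42, 9.43, 9.46 and 9.49 in transgenic embryos. In controls it read 9.55, 9.54, 9.50, 9.49 and 9.51. Every transgenic embryo thus lay below every control, though only 0.0014 separated the nearest embryos. The difference was -0.073 ± 0.044 and did not pass (limma adjusted p = 0.766); over all genes 0.622% had transgenic embryos that all lay below the controls. Its paralogue Smarcc2, which in mice limits cortical growth, differed by 0.0078 with overlapping groups. Smarcd1 read 8.79, 8.72, 8.73, 8.80 and 8.82 in transgenic embryos, against 8.78, 8.62, 8.59, 8.74 and 8.55 in controls, a difference of 0.11 ± 0.058 (adjusted p = 0.708). The other members of that family had differences of opposite sign, -0.081 for Smarcd2 and 0.063 for Smarcd3. Smarcd2 read 6.11, 6.33, 6.19, 6.29 and 6.17 in transgenic embryos, against 6.32, 6.32, 6.31, 6.20 and 6.36 in controls, with 3 transgenic embryos below every control. Smarcb1, the subunit that contacts the nucleosome's acidic patch, differed by -0.0075 with a 95% interval from -0.15 to 0.14. Smarce1 differed by 0.068, and its other probe sets gave 0.055 and 0.072.

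The subunits that tell the assemblies apart did not pass either. The DNA-binding subunits Arid1a and Arid1b, of which a BAF complex holds 1, differed by 0.038 and 0.042, and Arid2, their counterpart in PBAF, by 0.033. Pbrm1, the PBAF subunit with many bromodomains, read 11.08, 10.99, 11.19, 11.06 and 11.11 in transgenic embryos, against 11.06, 11.00, 10.96, 10.99 and 10.90 in controls. That gave 0.11 ± 0.054 (SE; limma adjusted p = 0.703). Its other probe sets gave 0.036 and 0.063, so the size depended on the probe set and the sign did not. Brd7, a bromodomain protein of PBAF, differed by -0.065. Brd9, its counterpart in ncBAF, read 8.27, 7.96, 8.10, 8.01 and 8.18 in transgenic embryos and 8.03, 8.16, 7.84, 8.15 and 7.79 in controls. Its groups overlapped, with a difference of 0.11 ± 0.089 (adjusted p = 0.834).

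Of the ATPases outside SWI/SNF, Smarca1 had the largest difference. This ISWI-type ATPase is abundant in the nervous system and its gene lies on the X chromosome. It read 7.68, 7.39, 7.75, 7.46 and 7.60 in transgenic embryos, against 7.41, 7.19, 7.28, 7.59 and 7.42 in controls. The ranges overlapped, since control embryo 4 lay above transgenic embryos 2 and 4. The difference of 0.20 ± 0.089 had an unadjusted p of 0.0437 and did not pass over all genes (limma adjusted p = 0.642). With the Xist level in the model the Smarca1 difference was 0.20. It was 0.17 with the pan-neuronal mean, 0.0885 with the dividing-cell mean and 0.055 with the diencephalon mean. Smarca5, the ISWI ATPase of dividing cells, differed by -0.031. Smarcad1, which acts on chromatin behind replication forks, differed by 0.027. Smarcal1, which remodels stalled forks, differed by 0.00003, with a 95% interval from -0.12 to 0.12.

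**Figure D2:**
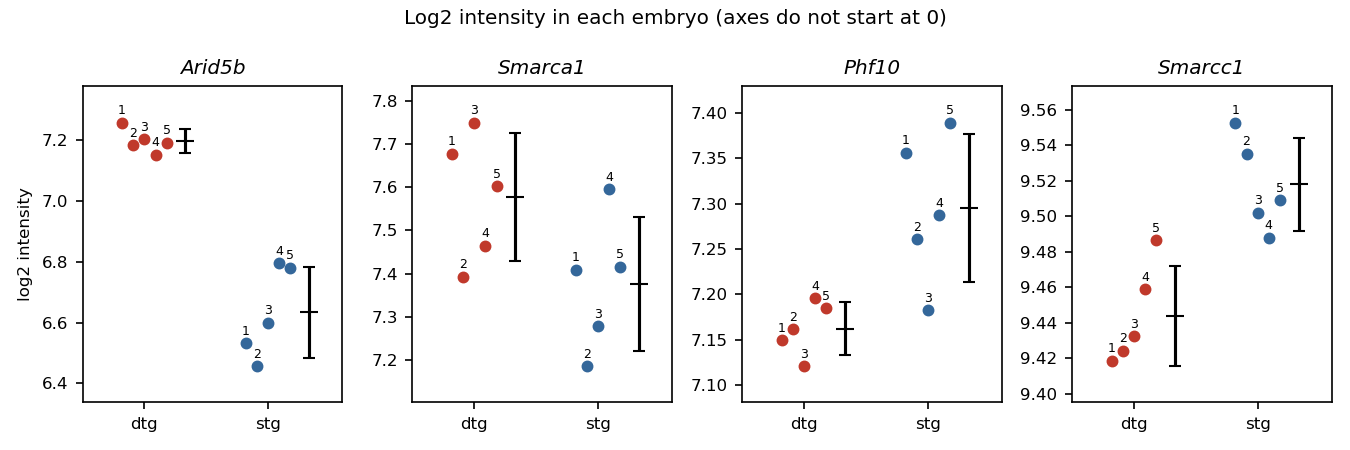
Log2 intensity of 4 members in each of 5 transgenic (dtg, red) and 5 control (stg, blue) embryos, numbered as in the labels, with the group mean ± SD in black. The groups are 0.36 apart for Arid5b and 0.0014 apart for Smarcc1, and overlap for Smarca1 and Phf10.

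The contrast between progenitor and neuronal subunits of BAF was small and uneven between embryos. Averaged per embryo, the 4 neuronal subunits had a mean log2 intensity of 6.97 ± 0.25 in transgenic embryos and 6.81 ± 0.34 in controls (SD, n = 5 each). The 4 progenitor subunits had 8.03 ± 0.045 in transgenic embryos and 8.12 ± 0.053 in controls. The transgenic minus control difference of the neuronal mean was 0.16 with all embryos and 0.019 without control embryo 5, and that of the progenitor mean was -0.086 with all embryos and -0.080 without it. The transgenic minus control difference of the neuronal minus the progenitor mean was 0.25, against an SD between embryos of 0.32. Without control embryo 5 it was 0.099. These means are descriptions of chosen genes and carry no test; none of the 8 genes passed over all genes.

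Actl6b, the neuronal actin-like subunit, read 7.58, 6.93, 7.48, 7.01 and 7.39 in transgenic embryos. In controls it read 7.33, 7.39, 6.95, 7.27 and 5.92. Control embryo 5 lay far below the rest, and the other 4 controls lay within the transgenic range. The difference of 0.31 ± 0.25 (SE; limma adjusted p = 0.841) was 0.045 without control embryo 5. Dpf1, a neuronal reader of modified histones, read 7.88, 7.60, 7.81, 7.45 and 7.73 in transgenic embryos, against 7.89, 7.78, 7.53, 7.71 and 7.10 in controls. Its difference was 0.091 ± 0.14 (adjusted p = 0.921) and turned to -0.034 without control embryo 5. Dpf3, its relative, read 6.03, 5.45, 6.14, 5.49 and 5.44 in transgenic embryos and 5.59, 5.46, 5.55, 5.65 and 5.09 in controls. Transgenic embryos 1 and 3 lay above all controls and the other transgenic embryos among them, with a difference of 0.24 ± 0.16 (adjusted p = 0.796). The Dpf3 difference was 0.14 without control embryo 5, 0.13 without transgenic embryo 3 and 0.16 without transgenic embryo 1. Ss18l1, a coactivator needed for dendrite growth in mice, read 7.42, 7.04, 7.46, 6.90 and 7.22 in transgenic embryos, against 7.40, 7.46, 7.07, 7.22 and 6.81 in controls. It differed by 0.016 ± 0.14 (adjusted p = 0.989), and by -0.080 without control embryo 5.

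Among the progenitor subunits, Phf10 had an unadjusted p below 0.05. Phf10 is a PHD finger protein that keeps mouse neural progenitors dividing. It read 7.15, 7.16, 7.12, 7.20 and 7.18 in transgenic embryos, against 7.36, 7.26, 7.18, 7.29 and 7.39 in controls. Control embryo 3 alone fell within the transgenic range. The difference was -0.13 ± 0.052 (unadjusted p = 0.0262; limma adjusted p = 0.596). Actl6a, the actin-like subunit of progenitors, read 8.64, 8.92, 8.62, 9.13 and 8.96 in transgenic embryos. In controls it read 8.99, 8.98, 8.93, 9.12 and 9.10. Transgenic embryos 1 and 3 were low and the others lay near the controls, which gave -0.17 ± 0.095 (adjusted p = 0.743). Dpf2 read 8.85, 8.89, 8.97, 8.85 and 8.83 in transgenic embryos, against 8.97, 8.84, 8.92, 8.80 and 8.81 in controls, a difference of 0.0086 with a 95% interval from -0.11 to 0.13. Ss18 read 7.30, 7.25, 7.25, 7.18 and 7.26 in transgenic embryos, against 7.49, 7.34, 7.32, 7.05 and 7.29 in controls. It differed by -0.049 (adjusted p = 0.921).

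The neuronal subunits varied with the neuronal marker level of the embryo. Across the 10 embryos Actl6b and the mean of the 15 pan-neuronal markers had a Pearson r of 0.99 (permutation p = 4e-05, adjusted p = 0.00064 over 16 relations). Spearman's rho was 0.95 (permutation p = 0.00011, adjusted 0.00176). Without control embryo 5 and transgenic embryo 1, the embryos farthest from the median of the marker mean, r was 0.94. For Dpf1 r was 0.94 (permutation p = 0.00038, adjusted 0.00304) and rho 0.77 (permutation p = 0.0126, adjusted 0.0336), with an r of 0.78 without those embryos. For Ss18l1 r was 0.82 (permutation p = 0.00066, adjusted 0.00352) and rho 0.77 (permutation p = 0.0125, adjusted 0.0336), and r was 0.79 without them. For Dpf3 r was 0.81 (permutation p = 0.00257, adjusted 0.00829), but rho was 0.68 and missed the threshold after adjustment (permutation p = 0.0345, adjusted 0.0789). Its r was 0.68 without those embryos. The points share arrays and their normalization, and each group alone has too few embryos for a within-group value.

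The progenitor subunits had weaker correlations with the pan-neuronal mean, which were not tested against those of the neuronal subunits. With 10 embryos a weaker relation could be missed. The Pearson r with the pan-neuronal mean was -0.58 for Actl6a, -0.60 for Phf10, 0.34 for Dpf2 and -0.031 for Ss18, and none passed a permutation test after adjustment (adjusted p from 0.0888 for Phf10 to 0.919 for Ss18). Actl6a and the mean of the 11 dividing-cell markers had an r of 0.87 (permutation p = 0.00654, adjusted 0.0174) and a rho of 0.56 (permutation p = 0.097, adjusted 0.172). Without transgenic embryos 1 and 3 the r for Actl6a was 0.29, so that relation rests on these embryos, whose dividing-cell means of 8.06 and 8.19 were the lowest. The neuronal subunits had negative values against the dividing-cell mean, with r from -0.66 for Dpf1 to -0.89 for Dpf3. After adjustment r passed for Dpf3 (permutation p = 0.00259, adjusted 0.00829), and rho passed for Actl6b at -0.90 (permutation p = 0.00094, adjusted 0.00752), Dpf1 at -0.82 and Ss18l1 at -0.79. The r for Dpf3 was -0.60 without transgenic embryos 1 and 3. The dividing-cell mean was 8.06 to 8.57 in transgenic embryos and 8.47 to 8.66 in controls.

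**Figure D3:**
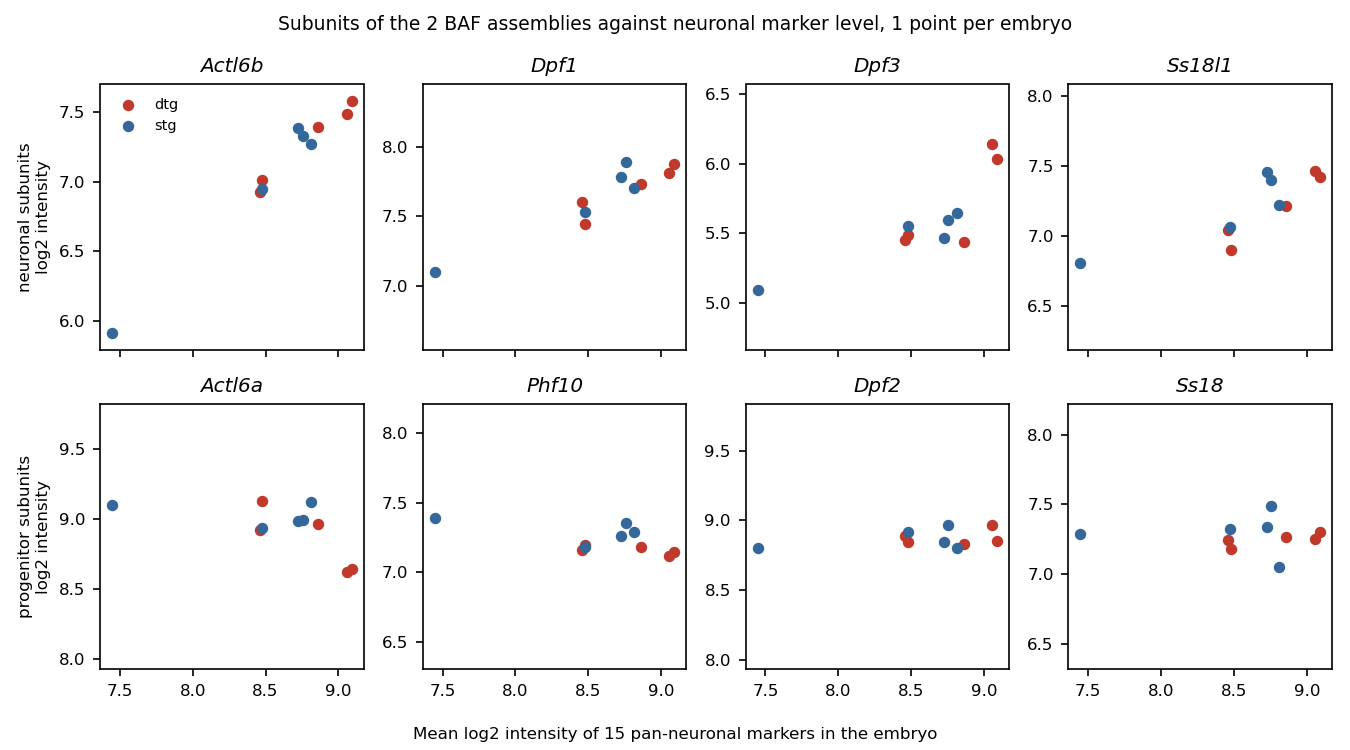
Log2 intensity of the 4 neuronal subunits (top) and 4 progenitor subunits (bottom) of BAF against the mean log2 intensity of 15 pan-neuronal markers, 1 point per embryo, with transgenic (dtg) embryos in red and control (stg) embryos in blue and the same span on every vertical axis. Actl6b follows the marker mean over all embryos (r = 0.99), with control embryo 5 at the lower left, while Dpf2 and Ss18 stay level.

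With the pan-neuronal mean in the model the group difference was -0.050 for Actl6b, -0.089 for Dpf1, 0.069 for Dpf3 and -0.15 for Ss18l1, and the standard error of Actl6b shrank to 0.060. With the dividing-cell mean in the model the difference was -0.0099 for Actl6a and -0.11 for Phf10. The pan-neuronal mean was 0.35 higher in transgenic embryos with all embryos and 0.097 higher without control embryo 5, and 0 of its 15 markers had an unadjusted p below 0.05 in limma. The dividing-cell mean differed by -0.20, and by -0.17 without control embryo 5.

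**Figure D4:**
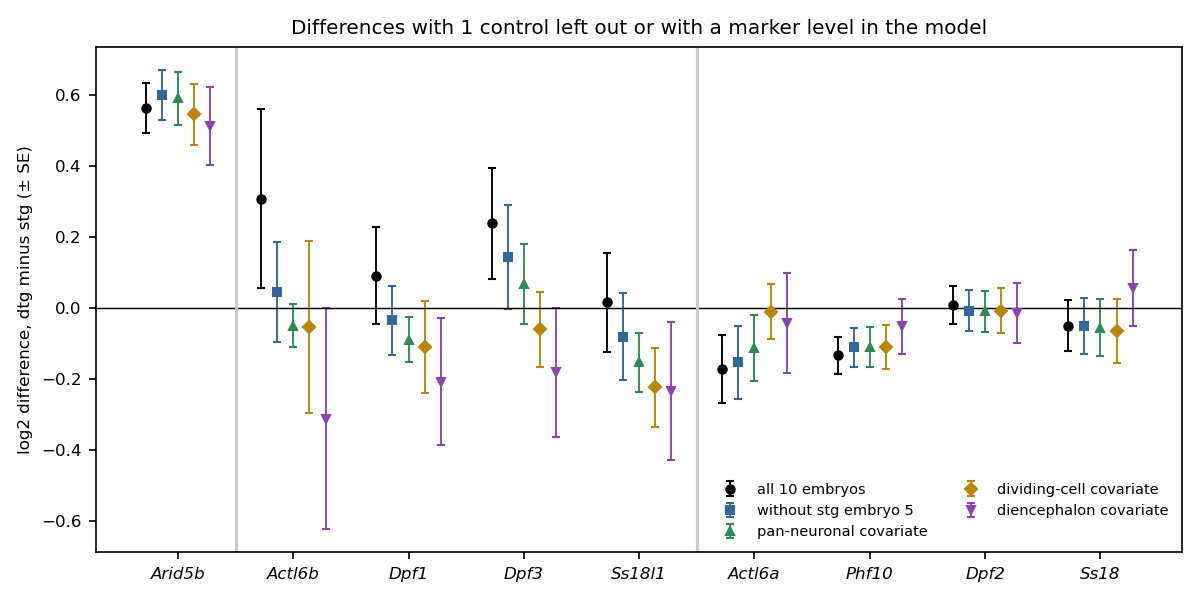
Log2 difference between transgenic (dtg) and control (stg) forebrains with its SE for Arid5b, the 4 neuronal and the 4 progenitor subunits, with all embryos, without control embryo 5, and with 1 of 3 marker means as a covariate. Arid5b stays between 0.51 and 0.60, whereas Actl6b runs from 0.31 with all embryos to -0.31 with the diencephalon mean.

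Genes that direct the subunit switch showed no called difference. In the mouse, Rest represses the microRNAs miR-9-3p and miR-124, which in turn repress Actl6a. Rest read 6.63, 7.12, 6.74, 7.01 and 7.01 in transgenic embryos and 6.73, 6.76, 6.93, 6.98 and 7.62 in controls, with control embryo 5 highest. Its difference was -0.10 ± 0.16 (limma adjusted p = 0.927) and turned to 0.054 without control embryo 5. In the list of 5 regulators 0 passed, and 0 had an unadjusted p below 0.05. The Rest corepressor gene Rcor1 differed by 0.076 and the splicing repressor gene Ptbp1 by -0.11, the smallest p-values of that list. Without control embryo 5 they differed by 0.11 and -0.018. The mature strands of miR-9 are shown because the array holds a probe set for a gene that encodes them, Mir9-1 on chromosome 3, with the seed, bases 2 to 8, in capitals.

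mmu-miR-9-3p: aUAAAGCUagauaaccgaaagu
mmu-miR-9-5p: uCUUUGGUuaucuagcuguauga

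The seeds of these strands differ, and the sequences are RefSeq's for GRCm38.p6. The Mir9-1 probe set, picked for the text after its values were seen, read 7.50, 7.63, 7.56, 7.54 and 7.64 in transgenic embryos. In controls it read 8.10, 8.15, 8.04, 7.67 and 8.59. All transgenic embryos lay below all controls, by 0.032 at the nearest, but the difference of -0.54 ± 0.13 (SE, n = 5 per group) did not pass (limma adjusted p = 0.205). The probe set reads transcripts of the gene and is no measure of the mature strands. Without control embryo 5 the Mir9-1 difference was -0.42. Mir9-3 differed by -0.062 (0.028 without control embryo 5), Mir124a-2 by 0.21 (0.19 without it) and Mir124a-3 by 0.16 (0.13 without it), none of which passed.

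Related chromatin genes were compared through 7 lists, of whose 84 genes 83 were measured. In them 0 genes passed in limma over all genes; 3 had positive and 7 had negative differences at an unadjusted p below 0.05, or 12.0% of the 83 against the background of 7.58%. Their median difference was -0.026 on the log2 scale, against -0.0038 over all genes. Transgenic and control embryos did not overlap for 3 of them, against 1.6% of all genes. Bcl11b and Bcl11a, zinc finger transcription factors of cortical neurons that also associate with BAF, were among these. Bcl11b read 7.22, 7.07, 7.28, 6.94 and 7.13 in transgenic embryos, against 7.89, 8.04, 7.56, 7.46 and 7.41 in controls. The difference was -0.54 ± 0.12 (adjusted p = 0.166). Without control embryo 5 it was -0.61. Bcl11a read 9.03, 8.91, 8.95, 8.93 and 9.09 in transgenic embryos and 9.20, 9.34, 9.13, 9.13 and 9.12 in controls, a difference of -0.20 ± 0.061 (adjusted p = 0.402). Beside these cortical genes, the telencephalon marker mean given above also had a negative difference, and its part in theirs was not tested. The third was Cecr2, a partner of ISWI ATPases, which ran from 6.99 to 7.32 in transgenic embryos and from 6.62 to 6.96 in controls. Cecr2 differed by 0.27 ± 0.082 (adjusted p = 0.416).

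In the remaining lists no gene passed. The typical size of a difference, whatever its sign, was 0.14 over the ISWI partners and 0.10 over the further SNF2 ATPases, against 0.059 over all genes. Among the 11 ISWI partners, Baz2b differed by 0.14 (limma adjusted p = 0.562) after Cecr2. Of 18 CHD and NuRD genes, Mta2 differed by -0.11 and Gatad2a by -0.16. Of 14 measured INO80 and SWR genes, Actr6 differed by -0.25 (adjusted p = 0.531) and Ruvbl2 by -0.11. Of 12 further SNF2 ATPases, 10 had a negative difference, against 10344 of all 19938 genes. Btaf1 differed by -0.13 (adjusted p = 0.569) and Ercc6l by -0.19. Of 15 partners of ARID proteins, the SIN3 subunit gene Sap30 differed by -0.26 (adjusted p = 0.582) and Jarid2, a partner of Polycomb, by 0.21 (adjusted p = 0.606). Phf2, the demethylase partner of Arid5b, read 7.35 to 7.54 in transgenic embryos and 7.35 to 7.55 in controls, with a difference of 0.016 and a 95% interval from -0.12 to 0.15.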

How the data were processed

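RNA from part of the forebrain of each of 10 embryos was hybridized to 1 array after biotin labelling, per the labels' protocols. The authors deposited log2 intensities for 35556 probe sets, for which the submitters' processing notes name Affymetrix Expression Console; its version and settings are not given in the sources used here. No further normalization was applied. A single gene was named for 21789 of them, more than 1 for 1621, and 12146 had no name; 6 that name a member together with other genes were not used. Each of 19938 genes was represented by its probe set with the highest mean. Levels of different probe sets were not compared. Groups came from the sample titles and were compared by a linear model of group alone with empirical Bayes variances (limma 3.58.1, R 4.3.3), two-sided, at a Benjamini-Hochberg adjusted p of 0.05 over all genes. The procedure was tested on simulated data in which each gene varied independently. That test does not cover variation that genes share within an embryo. Correlations used 100000 permutations, two-sided. Covariates were per-embryo means of marker lists or the Xist level.

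The members and lists were chosen with earlier results of these data known. Values in every embryo are given for members that passed, the 8 progenitor and neuronal subunits, Smarca2, Smarca4 and the 8 other members with the smallest p; of each related list the 2 genes with the smallest p are named. Foxo3, Rest, Phf2 and the microRNA genes were named in addition, the microRNA genes after their values were seen.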

Additional observations from a re-analysis of the deposited data

Results flagged for a closer look

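In 68 groups of 5 embryos (34 genes in either genotype) 2 embryos lay apart from the rest of their group by Dixon's ratio, fewer than the 5% that chance gives. Smarca2, a catalytic ATPase, read 7.18 in control embryo 5, while the other controls lay between 7.31 and 7.35. Smarcd3, a core subunit of heart and neuronal assemblies, read 8.07 in control embryo 4, while the other controls lay between 7.69 and 7.76.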

How the results depend on the processing

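Each member was recomputed under 20 alternatives, and 0 members other than Arid5b were called under any of them. Arid5b kept its sign in all 20 and was called in 16, with differences from 0.51 to 0.60 and adjusted p from 0.00341 to 0.583. The call was lost with the replicate number as a block (0.56, adjusted p = 0.0947), with the dividing-cell covariate (0.55), with the diencephalon covariate (0.51) and without transgenic embryo 1; leaving out each embryo in turn gave 0.52 to 0.60. The count of called members in limma was 0 in those 4 fits, in which 5 members with the replicate block (against 8.0% of all genes), 1 with the dividing-cell covariate (5.84%), 1 with the diencephalon covariate (3.83%) and 3 without transgenic embryo 1 (5.78%) had an unadjusted p below 0.05, and ranged from 0 to 1 when an embryo was left out. The labels do not state that the replicate numbers pair embryos; deviations of same-numbered embryos correlated between -0.246 and 0.238, above 0.1 in 1 of 5 pairs, and 1 of 5 transgenic embryos correlated best with the control of its number. Over all genes 21 were called, against 2 with the replicate block, 0 with the diencephalon covariate (764 at an unadjusted p below 0.05), 95 with the pan-neuronal covariate, 39 with array weights, 55 at an adjusted p below 0.1, and 7 to 58 when an embryo was left out (7 without transgenic embryo 1, 58 without control embryo 4, 37 without control embryo 5, and 8 to 12 without transgenic embryos 2, 4 or 5 or control embryos 1, 2 or 3). The block and the covariates leave fewer degrees of freedom, and why the counts differ was not tested. The dividing-cell and Xist covariates each left 19 genes called. Arid5b had an SE of 0.11 with the diencephalon covariate, against 0.070 with group alone. The neuronal minus progenitor difference was -0.22 with the diencephalon covariate, against 0.25 without.

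Of the 33 members that did not pass, 22 changed sign somewhere. With the diencephalon covariate these were Actl6b at -0.31, Arid1a at -0.024, Arid3a at 0.072, Brd9 at -0.029, Dpf1 at -0.21, Dpf2 at -0.013, Dpf3 at -0.18, Smarca4 at -0.11, Smarcad1 at -0.061, Smarcal1 at -0.093, Smarcc2 at -0.16, Smarcd2 at 0.015, Smarcd3 at -0.13, Smarce1 at -0.056, Ss18 at 0.057 and Ss18l1 at -0.23. With the dividing-cell covariate they were Actl6b at -0.053, Arid1a at -0.042, Arid1b at -0.021, Arid3a at 0.026, Arid3c at -0.057, Arid4a at 0.042, Brd9 at -0.0094, Dpf1 at -0.11, Dpf2 at -0.0066, Dpf3 at -0.060, Smarca4 at -0.074, Smarcad1 at -0.040, Smarcal1 at -0.0044, Smarcc2 at -0.14, Smarcd3 at -0.013, Smarce1 at -0.00035 and Ss18l1 at -0.22. With the pan-neuronal covariate they were Actl6b at -0.050, Arid1a at -0.0040, Arid3a at 0.0045, Dpf1 at -0.089, Dpf2 at -0.0081, Smarca4 at -0.052, Smarcad1 at -0.031, Smarcal1 at -0.026, Smarcc2 at -0.092 and Ss18l1 at -0.15. With array weights they were Dpf2 at -0.0076, Smarca4 at -0.0074, Smarcal1 at -0.0035, Smarcc2 at -0.014 and Ss18l1 at -0.025, and with quantile normalization Smarcb1 at 0.0067. When an embryo was left out 13 members crossed 0, with ranges from -0.064 to 2.8e-05 for Arid3a, -0.056 to 0.097 for Arid3c, -0.058 to 0.032 for Arid4a, -0.042 to 0.0094 for Arid4b, -0.034 to 0.16 for Dpf1, -0.014 to 0.033 for Dpf2, -0.028 to 0.034 for Smarca4, -0.080 to 0.016 for Smarca5, -0.0099 to 0.051 for Smarcad1, -0.022 to 0.030 for Smarcal1, -0.035 to 0.039 for Smarcb1, -0.044 to 0.052 for Smarcc2 and -0.080 to 0.094 for Ss18l1. The cause was not tested. Leaving out genes below the 40th percentile of mean intensity removed 1 member, Arid3c. The table gives no background signal, so low levels could not be judged against it.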
